A study of Arabidopsis with 12 samples.

Results

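The genes described here encode the light-harvesting antenna and the nuclear-encoded subunits of photosystem I and photosystem II of Arabidopsis thaliana. They were chosen by name: 45 gene identifiers of the LHCA, LHCB, PSA and PSB families were looked up in the deposited expression table of 28693 loci, and where an identifier lay on several loci the locus with the highest mean expression was taken. Of the 45 genes, 41 had a locus of their own, namely 17 antenna genes, 12 photosystem I genes and 12 photosystem II genes. LHCB7 was the 1 gene found on more than 1 locus. The other 4 genes lay in 2 loci that each merge a pair of neighbouring genes, LHCB1.1 with LHCB1.2 and LHCB2.1 with LHCB2.2, so their pooled values are given apart and are not counted among the 41. All 45 identifiers matched an entry of the RefSeq gene table for the organism.

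The study sequenced RNA of 4 groups with 3 libraries each: pad4 labelled -Fe, pad4 labelled +Fe, wild type (Col-0) labelled -Fe and wild type labelled +Fe. The pad4 plants are mutants of PHYTOALEXIN DEFICIENT 4, a regulator of salicylic acid signalling in defence, and the labels name neither the allele nor the number of lines. Per the protocols, the plants grew on agar plates at 24 °C in days of 16 h light (140 µmol photons, per square metre and second) and 8 h dark, and spent 7 d on medium lacking Fe or on complete medium. The tissue is given as shoot in a sample field, as leaves and roots in the protocol and as whole seedlings in the design text, and nothing says that the 3 libraries of a group came from separate cultures, so p-values measure the spread between these libraries, which may be technical.

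The libraries went against their Fe labels on genes of Fe status, and this holds for all 12. BHLH100 and IMA1, an activator and a peptide signal of the Fe-deficiency response that are high in plants short of Fe, had 0.122 to 0.666 FPKM and 1.88 to 5.498 FPKM in the 6 libraries labelled -Fe, against 975.8 to 1137 FPKM and 536.1 to 753.2 FPKM in the 6 labelled +Fe. FER1, a ferritin that stores Fe and is high in plants with ample Fe, had 270.9 to 332.6 FPKM in the libraries labelled -Fe, against 10.3 to 11.8 FPKM in those labelled +Fe. The groups are therefore called by their labels throughout, "labelled -Fe" and "labelled +Fe", and every difference between Fe labels below is the library labelled -Fe over the library labelled +Fe. The mutated gene itself, PAD4, had 10.3 to 13.6 FPKM in the 6 pad4 libraries, against 18.1 to 21.97 FPKM in the 6 wild-type libraries, without overlap.

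In plants and green algae, light energy is caught by chlorophyll-binding antenna proteins and passed to the reaction centres of photosystem II and photosystem I, which work in series in the thylakoid membrane. Photosystem II takes electrons from water and photosystem I passes them to ferredoxin. Photosystem I is rich in iron-sulphur clusters, so the photosynthetic chain is among the larger users of Fe in a leaf. The central proteins of both reaction centres are encoded in the plastid, whereas the antenna and the peripheral subunits described here are encoded in the nucleus and imported.

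Several facts of the whole libraries move with the groups. The highest locus, which merges AT1G07590 with the metallothionein gene AT1G07600, held 2.52 to 5.89% of all FPKM in pad4 labelled -Fe, 7.38 to 14.0% in pad4 labelled +Fe, 3.83 to 6.18% in wild type labelled -Fe and 13.5 to 13.9% in wild type labelled +Fe. Over 7 heat-shock genes the summed level was 877 to 1199 FPKM in pad4 labelled -Fe, 2024 to 2846 FPKM in pad4 labelled +Fe, 5420 to 7220 FPKM in wild type labelled -Fe and 1184 to 1557 FPKM in wild type labelled +Fe. HSP22 and HSP18.2, small heat-shock proteins, differed between Fe labels by 7.61 ± 0.10 and 6.98 ± 0.15 (log2, SE) in wild type (limma adjusted p = 1.08e-12 and 3.77e-11). Of 12 clock genes, 8 were lower at label -Fe in each genotype, where 31.0% of all loci tested were lower in pad4 and 26.7% in wild type, among them PRR9 (a difference of -1.45 ± 0.09 in pad4 and -1.94 ± 0.09 in wild type) and RVE1 (-1.57 ± 0.07 and -1.43 ± 0.07). The 10 root markers summed to 39.1 to 46.0 FPKM in pad4 labelled -Fe, 28.2 to 37.4 FPKM in pad4 labelled +Fe, 30.1 to 39.6 FPKM in wild type labelled -Fe and 27.8 to 34.2 FPKM in wild type labelled +Fe, of which SCR, also active in leaves, made up the most, with 21.3 to 24.4 FPKM in pad4 labelled -Fe, 16.3 to 23.1 FPKM in pad4 labelled +Fe, 15.2 to 23.3 FPKM in wild type labelled -Fe and 15.5 to 20.4 FPKM in wild type labelled +Fe. The root-hair genes COBL9 and EXPA7 and the root-tip gene PLT1 averaged under 1 FPKM in every group. Of all 10 markers, 6 averaged 1 FPKM or more in pad4 labelled -Fe, 4 in pad4 labelled +Fe, 5 in wild type labelled -Fe and 4 in wild type labelled +Fe. Of the 6 markers tested, 6 had a positive difference between Fe labels in pad4 and 5 in wild type. Called higher were 2 and 1 of them, where 26.3% and 25.2% of all loci were. In each group 1 library stood apart from its 2 partners: replicate 3 of pad4 labelled -Fe and replicate 2 of the other groups. The part of these differences in the results below was not tested, except where a rescaled value is given.

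Together the 41 genes held a larger share of the expression of a library at label -Fe than at label +Fe, in both genotypes. Expression is given as FPKM, fragments per kilobase of gene scaled to library size, which is a level per length, so genes can be set side by side. The 41 genes held 5.71 ± 0.43% of all FPKM in pad4 labelled -Fe and 2.74 ± 0.05% in pad4 labelled +Fe, and 4.46 ± 0.38% in wild type labelled -Fe and 2.34 ± 0.15% in wild type labelled +Fe (SD, n = 3 each). The ranges of the 4 groups, 5.23 to 6.03%, 2.69 to 2.78%, 4.02 to 4.71% and 2.16 to 2.43% in the same order, did not overlap. Fewer cells of a photosynthetic type and less of these RNAs per cell cannot be told apart in such bulk samples.

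By part, the antenna genes held 2.78 ± 0.14% and 1.52 ± 0.05% of all FPKM in pad4 labelled -Fe and +Fe, and 2.17 ± 0.13% and 1.197 ± 0.056% in wild type labelled -Fe and +Fe (SD, n = 3 each). The photosystem I genes held 1.43 ± 0.11% and 0.501 ± 0.002% in pad4, and 1.102 ± 0.090% and 0.444 ± 0.028% in wild type, in the same order of labels. For photosystem II the shares were 1.51 ± 0.18% and 0.721 ± 0.015% in pad4, and 1.18 ± 0.16% and 0.694 ± 0.071% in wild type. The summed FPKM of photosystem I over that of photosystem II was therefore 0.906 to 1.01 in pad4 labelled -Fe and 0.687 to 0.709 in pad4 labelled +Fe, and 0.900 to 1.00 in wild type labelled -Fe and 0.624 to 0.673 in wild type labelled +Fe. Antenna over photosystem I was 1.87 to 1.99 and 2.91 to 3.098 in pad4 labelled -Fe and +Fe, and 1.92 to 2.02 and 2.66 to 2.75 in wild type. In both genotypes these ratios did not overlap between labels, whereas antenna over photosystem II overlapped between the labels, with 1.74 to 2.01 and 1.997 to 2.197 in pad4 and 1.74 to 2.03 and 1.67 to 1.85 in wild type.

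**Figure D1:**
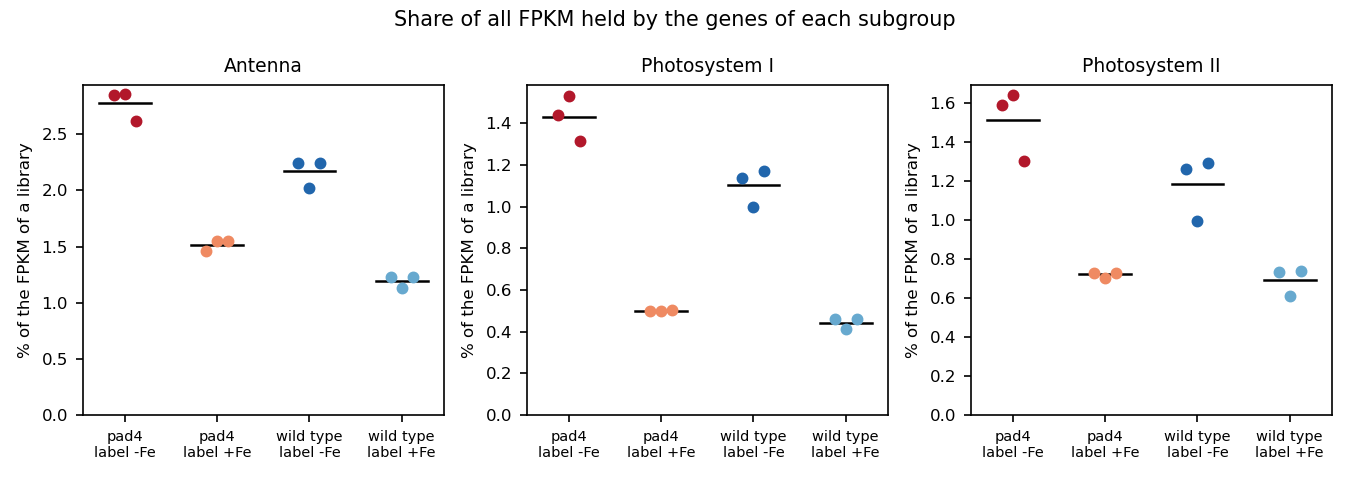
Share of all FPKM of a library (%, vertical axes from 0) held by the 17 antenna, 12 photosystem I and 12 photosystem II genes, 1 point per library and a bar at the mean of each group of 3. All 6 libraries labelled -Fe lie above all 6 labelled +Fe in each panel, and pad4 labelled -Fe has the highest mean of the 4 groups.

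Single genes differed widely in level. Means over the 12 libraries ran from 32.8 FPKM for LHCB7 to 5432 FPKM for LHCB1.3, the locus of rank 4 among all, with a median of 665.2 FPKM over the 41 genes, against 13.9 FPKM over all 20173 loci tested. After LHCB1.3 the highest were PSBR, LHCB5, LHCB1.5 and PSBO1, with means of 2553, 2499, 1695 and 1458 FPKM, and 37 of the 41 genes averaged above 100 FPKM. The lowest after LHCB7 were LHCB4.3, LHCB2.3 and LHCA6, at 38.0, 70.8 and 72.7 FPKM, all of them antenna genes. All 41 stood at 1 FPKM or more in every library, so none entered the test through its higher group alone. LHCA4, LHCA5, LHCB1.5, LHCB3, LHCB4.2, LHCB6, LHCB7, PSAE2, PSAH1 and PSBR overlap another locus, and as no source used here says that counting used the strand, reads of the overlap cannot be told apart.

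Nearly all of these genes were higher at label -Fe, in both genotypes. Differences were tested with limma on log2(FPKM + 1) over all 20173 loci, called at a Benjamini-Hochberg adjusted p under 0.05, and are given on that scale with their standard error. In pad4, 37 of the 41 genes rose, 1 fell and 3 were not called, where 57.4% of all loci tested were called, 26.3% rising and 31.0% falling. In wild type, 35 rose, 1 fell and 5 were not called, where 51.9% of all loci were called, 25.2% rising and 26.7% falling. With only the 6 wild-type libraries and the replicate number as a block, chosen after seeing the data, LHCA1, LHCA5, PSBR and PSBS were called too, at 0.24, 0.09, 0.20 and 0.23 (limma adjusted p = 0.0270, 0.0441, 0.0201 and 0.0103), where 66.1% of all loci were called. Whether the replicate numbers pair these libraries is not settled. The median difference was 1.29 in pad4 and 0.98 in wild type, against medians of -0.05 and -0.02 over all loci. The single gene that fell was LHCB7 in both. After rescaling each library to its total without these genes and without the 20 highest loci, the counts were again 37 and 1 in pad4 and 35 and 1 in wild type.

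By part, 14 of 17 antenna genes rose in pad4 and 13 of 17 in wild type, all 12 photosystem I genes rose in each, and of the 12 photosystem II genes 11 rose in pad4 and 10 in wild type. Median differences were 1.08, 1.41 and 1.22 for antenna, photosystem I and photosystem II in pad4, and 0.82, 1.13 and 0.78 in wild type. The libraries of the 2 labels did not overlap for 37 of the 41 genes in pad4, against 61.8% of all loci, and for 36 in wild type, against 59.5% of all loci. As a fold of FPKM + 1, the median difference was 2.45-fold in pad4 and 1.97-fold in wild type.

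**Figure D2:**
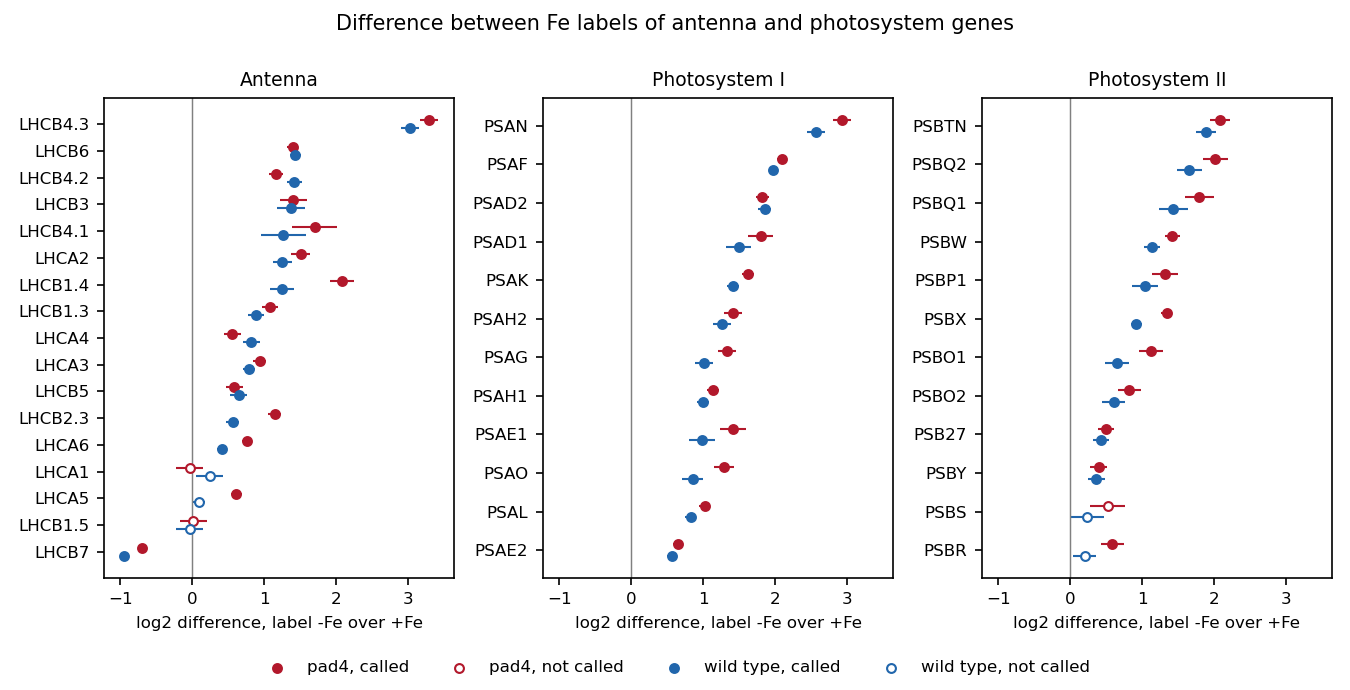
Log2 difference of libraries labelled -Fe over libraries labelled +Fe, log2(FPKM + 1), for each gene in pad4 (red) and wild type (blue), with bars of 1 standard error and open points where the adjusted p did not pass 0.05. Photosystem I genes lie between 0.57 and 2.92 and all are filled, LHCB7 is the only gene left of 0 that is filled, and LHCA1 and LHCB1.5 lie at 0.24 or less in both genotypes.

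Among the antenna genes of photosystem I, the proteins LHCA1 to LHCA4 form the belt of the light-harvesting complex on one side of the reaction centre, and LHCA5 and LHCA6 are minor proteins that link photosystem I to the NDH complex of cyclic electron flow. LHCA2 (AT3G61470, chromosome 3, 22745653 to 22747282 on TAIR10) had 2291, 2167 and 1748 FPKM in pad4 labelled -Fe and 741, 693 and 734 FPKM in pad4 labelled +Fe. Wild-type LHCA2 had 1744, 1341 and 1642 FPKM at label -Fe and 701, 575 and 709 FPKM at label +Fe. The labels did not overlap in either genotype, and LHCA2 rose by 1.51 ± 0.13 in pad4 and 1.25 ± 0.13 in wild type (limma adjusted p = 2.68e-06 and 1.25e-05), the largest rise of the LHCA genes. LHCA3 rose by 0.94 ± 0.09 and 0.79 ± 0.09, and LHCA4 by 0.55 ± 0.12 and 0.82 ± 0.12.

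LHCA1 was not called in either genotype. It had 1513, 1177 and 1818 FPKM in pad4 labelled -Fe and 1411, 1713 and 1448 FPKM in pad4 labelled +Fe. Wild-type LHCA1 had 1194, 1612 and 1057 FPKM at label -Fe and 996, 1220.3 and 1015 FPKM at label +Fe. The labels overlapped in both genotypes, and the difference was -0.04 ± 0.18 in pad4 and 0.24 ± 0.18 in wild type (limma adjusted p = 0.873 and 0.297). A direct test of LHCA1 against the other LHCA genes was not made.

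LHCA5 had 170.5, 168 and 142 FPKM in pad4 labelled -Fe and 101, 99.8 and 111 FPKM in pad4 labelled +Fe. Wild-type LHCA5 had 111, 105 and 113 FPKM at label -Fe and 102, 99.2 and 106 FPKM at label +Fe. Only pad4 labelled -Fe stood clear of the other 3 groups, and LHCA5 rose by 0.61 ± 0.08 in pad4 (limma adjusted p = 5.47e-05), with a difference of 0.09 ± 0.08 in wild type (0.348). LHCA6 had 109, 115 and 103 FPKM in pad4 labelled -Fe and 63.4, 65.9 and 62.8 FPKM in pad4 labelled +Fe. Wild-type LHCA6 had 68.7, 62.2 and 71.6 FPKM at label -Fe and 49.2, 51.5 and 50.6 FPKM at label +Fe. It rose in both, by 0.76 ± 0.07 in pad4 and 0.41 ± 0.07 in wild type (limma adjusted p = 3.03e-06 and 3.57e-04).

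The LHCB1, LHCB2 and LHCB3 proteins build the trimeric main antenna of photosystem II, the most abundant membrane protein of the chloroplast. LHCB1.3 (AT1G29930, chromosome 1, 10478005 to 10479048) had 9390.0, 7614 and 7816 FPKM in pad4 labelled -Fe and 3829, 3853 and 3984 FPKM in pad4 labelled +Fe. Wild-type LHCB1.3 had 6402, 6093 and 6117 FPKM at label -Fe and 3453, 3215 and 3424 FPKM at label +Fe. It rose by 1.08 ± 0.11 in pad4 and 0.88 ± 0.11 in wild type (limma adjusted p = 8.79e-06 and 4.61e-05). On its own it held 0.879 ± 0.049% of all FPKM in pad4 labelled -Fe and 0.414 ± 0.016% in pad4 labelled +Fe, and 0.679 ± 0.020% in wild type labelled -Fe and 0.350 ± 0.016% in wild type labelled +Fe (SD, n = 3 each).

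The neighbours LHCB1.4 and LHCB1.5 on chromosome 2 differed from each other in their values. LHCB1.4 (AT2G34430, 14524756 to 14525763) had 633, 605 and 441 FPKM in pad4 labelled -Fe and 140.3, 117 and 134 FPKM in pad4 labelled +Fe. Wild-type LHCB1.4 had 278, 199 and 254 FPKM at label -Fe and 108, 84.6 and 114 FPKM at label +Fe. LHCB1.5 (AT2G34420, 14518406 to 14523568) had 2059.8, 2069.7 and 1414 FPKM in pad4 labelled -Fe and 1900.1, 1638 and 1875 FPKM in pad4 labelled +Fe. Wild-type LHCB1.5 had 1739.6, 1214 and 1689 FPKM at label -Fe and 1701, 1339 and 1699 FPKM at label +Fe. LHCB1.4 rose without overlap, by 2.08 ± 0.17 in pad4 and 1.24 ± 0.17 in wild type (limma adjusted p = 1.29e-06 and 7.69e-05), whereas LHCB1.5 overlapped between labels, with differences of 0.02 ± 0.18 and -0.04 ± 0.18 (0.947 and 0.875). With quantile normalization LHCB1.5 was called lower in wild type, at -0.42 (limma adjusted p = 0.0434).

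The merged locus of LHCB1.1 and LHCB1.2 (chromosome 1, 10472280 to 10475959) had 1319.5, 1273 and 942 FPKM in pad4 labelled -Fe and 641, 541 and 729 FPKM in pad4 labelled +Fe. The LHCB1.1 and LHCB1.2 locus in wild type had 758, 586 and 752 FPKM at label -Fe and 473, 393 and 459 FPKM at label +Fe. It rose by 0.88 ± 0.16 in pad4 and 0.66 ± 0.16 in wild type (limma adjusted p = 6.46e-04 and 0.00474). The merged locus of LHCB2.1 and LHCB2.2 (chromosome 2, 1799234 to 1824425) had 1649, 1464 and 1197 FPKM in pad4 labelled -Fe and 1128, 777 and 943 FPKM in pad4 labelled +Fe. The LHCB2.1 and LHCB2.2 locus in wild type had 622, 869 and 825 FPKM at label -Fe and 601, 664 and 654 FPKM at label +Fe. It rose by 0.60 ± 0.17 in pad4 (limma adjusted p = 0.00937), and its difference of 0.26 ± 0.17 in wild type was not called (0.217). LHCB1 and LHCB2 genes are near-identical copies, and how the authors assigned reads that fit several copies is not given in the sources used here, so the split of reads among them is uncertain.

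LHCB2.3 (AT3G27690, chromosome 3, 10255947 to 10257011) had 157, 159 and 131 FPKM in pad4 labelled -Fe and 66.4, 62.1 and 71.6 FPKM in pad4 labelled +Fe. Wild-type LHCB2.3 had 41.1, 36.8 and 43.5 FPKM at label -Fe and 25.8, 27.2 and 28.2 FPKM at label +Fe. All 4 groups were apart, in the order just given, and LHCB2.3 rose by 1.15 ± 0.09 in pad4 and 0.56 ± 0.09 in wild type (limma adjusted p = 1.31e-06 and 3.56e-04). LHCB3, the third subunit of the trimer, rose by 1.401 ± 0.19 in pad4, to 664 ± 117 FPKM against 250.0 ± 38.3 FPKM at label +Fe, and by 1.37 ± 0.19 in wild type, to 561 ± 111 FPKM against 216 ± 35.03 FPKM (SD, n = 3 each).

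LHCB4, LHCB5 and LHCB6 are the monomeric antenna proteins that sit between the trimers and the photosystem II core. The largest relative difference of all 41 genes was that of LHCB4.3 (AT2G40100, chromosome 2, 16745653 to 16747400), the third LHCB4 copy. It had 66.3, 76.7 and 59.3 FPKM in pad4 labelled -Fe and 6.43, 6.199 and 5.34 FPKM in pad4 labelled +Fe. Wild-type LHCB4.3 had 79.1, 58.7 and 75.1 FPKM at label -Fe and 8.68, 7.78 and 6.98 FPKM at label +Fe. LHCB4.3 rose by 3.29 ± 0.13 in pad4 and 3.02 ± 0.13 in wild type (limma adjusted p = 3.94e-09 and 7.63e-09). Its mean FPKM at label -Fe was 11.3 times that at label +Fe in pad4 and 9.08 times in wild type, more than the log2(FPKM + 1) scale gives for a gene this low.

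LHCB4.1 had 2221, 2344 and 1231 FPKM in pad4 labelled -Fe and 686, 444 and 608 FPKM in pad4 labelled +Fe. Wild-type LHCB4.1 had 1831, 999 and 1749 FPKM at label -Fe and 719, 439 and 728 FPKM at label +Fe. In each group 1 library was below the other 2. Its rises of 1.702 ± 0.31 and 1.26 ± 0.31 had the largest standard errors of the 41 genes. LHCB4.2 had 1004, 869.9 and 781 FPKM in pad4 labelled -Fe and 385, 375 and 419.6 FPKM in pad4 labelled +Fe. Wild-type LHCB4.2 had 591, 505 and 575 FPKM at label -Fe and 212, 193 and 218 FPKM at label +Fe. Its libraries agreed more closely, and it rose by 1.16 ± 0.10 in pad4 and 1.42 ± 0.10 in wild type (limma adjusted p = 2.79e-06 and 5.83e-07).

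LHCB6 had 1146, 1084 and 989 FPKM in pad4 labelled -Fe and 411, 382 and 432 FPKM in pad4 labelled +Fe. Wild-type LHCB6 had 867, 826 and 890.2 FPKM at label -Fe and 328, 302 and 327 FPKM at label +Fe. It rose by 1.39 ± 0.08 in pad4 and 1.43 ± 0.08 in wild type (limma adjusted p = 8.62e-08 and 6.56e-08). LHCB5 was higher in level and rose less, by 0.58 ± 0.12 to 3522 ± 269 FPKM against 2355 ± 206 FPKM in pad4, and by 0.64 ± 0.12 to 2513 ± 294 FPKM against 1605 ± 148 FPKM in wild type (SD, n = 3 each). Both calls of LHCB5 were lost with quantile normalization, with differences of 0.02 and 0.26 (limma adjusted p = 0.876 and 0.0633).

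LHCB7 (AT1G76570, chromosome 1, 28728253 to 28730825), a family member of low level for this family and of little known role, ran the other way. It had 23.2, 23.4 and 23.9 FPKM in pad4 labelled -Fe and 39.9, 38.5 and 38.5 FPKM in pad4 labelled +Fe. Wild-type LHCB7 had 22.7, 23.5 and 23.1 FPKM at label -Fe and 46.7, 45.3 and 45.1 FPKM at label +Fe. The 6 libraries labelled -Fe lay between 22.7 and 23.9 FPKM in both genotypes, below every library labelled +Fe. LHCB7 fell, with differences of -0.70 ± 0.05 in pad4 and -0.95 ± 0.05 in wild type (limma adjusted p = 5.68e-07 and 4.56e-08). Another, lower locus of the same identifier (1.84 FPKM on average) overlaps it, as does the locus of another gene, AT1G76560 (9.62 FPKM).

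All 12 photosystem I genes rose in both genotypes, and PSAN, PSAF and the PSAD pair had the largest differences. PSAF and PSAN help plastocyanin dock on the lumen side, and PSAD and PSAE form, with the plastid-encoded PsaC, the stromal ridge where ferredoxin docks. PSAN (AT5G64040, chromosome 5, 25628588 to 25629615) had 1759, 1603 and 1352 FPKM in pad4 labelled -Fe and 226, 181 and 210.1 FPKM in pad4 labelled +Fe. Wild-type PSAN had 1105, 957 and 1246 FPKM at label -Fe and 189, 171 and 195 FPKM at label +Fe. PSAF (AT1G31330, chromosome 1, 11214824 to 11216037) had 1292, 1356 and 1221 FPKM in pad4 labelled -Fe and 297, 311 and 293 FPKM in pad4 labelled +Fe. Wild-type PSAF had 1051, 1027 and 1007 FPKM at label -Fe and 252, 275 and 255 FPKM at label +Fe. Neither gene came near an overlap of labels. PSAN rose by 2.92 ± 0.13 in pad4 and 2.56 ± 0.13 in wild type (limma adjusted p = 8.66e-09 and 2.43e-08), and PSAF by 2.097 ± 0.07 and 1.98 ± 0.07 (8.63e-10 and 1.45e-09).

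PSAD1 had 788, 780.1 and 562 FPKM in pad4 labelled -Fe and 223, 176 and 207 FPKM in pad4 labelled +Fe. Wild-type PSAD1 had 663, 437 and 567 FPKM at label -Fe and 211, 169 and 205 FPKM at label +Fe. PSAD2 had 493, 449.9 and 537 FPKM in pad4 labelled -Fe and 131, 148 and 137 FPKM in pad4 labelled +Fe. Wild-type PSAD2 had 308, 327 and 276 FPKM at label -Fe and 79.2, 90.8 and 79.6 FPKM at label +Fe. Both copies rose, PSAD1 by 1.799 ± 0.17 in pad4 and 1.49 ± 0.17 in wild type and PSAD2 by 1.82 ± 0.09 and 1.85 ± 0.09 (limma adjusted p from 2.62e-08 to 2.52e-05).

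PSAE1 had 1222, 1144 and 926 FPKM in pad4 labelled -Fe and 468, 342 and 427 FPKM in pad4 labelled +Fe. Wild-type PSAE1 had 902, 684 and 966 FPKM at label -Fe and 469, 337 and 488 FPKM at label +Fe. PSAE2 had 459, 431 and 393 FPKM in pad4 labelled -Fe and 271, 278 and 266 FPKM in pad4 labelled +Fe. Wild-type PSAE2 had 371, 343 and 366 FPKM at label -Fe and 248, 235 and 245 FPKM at label +Fe. PSAE2 had the smallest rise of the 12 genes, 0.65 ± 0.07 in pad4 and 0.57 ± 0.07 in wild type, beside 1.41 ± 0.18 and 0.98 ± 0.18 for PSAE1. All 4 were called (limma adjusted p from 1.32e-05 to 8.75e-04).

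The remaining photosystem I genes encode small membrane subunits around the core. PSAG and PSAK sit at the edge facing the antenna belt, and PSAH, PSAL and PSAO lie on the side where the main antenna docks in state transitions. PSAK rose by 1.62 ± 0.08 in pad4 and 1.42 ± 0.08 in wild type, PSAG by 1.33 ± 0.12 and 1.01 ± 0.12, PSAO by 1.29 ± 0.14 and 0.85 ± 0.14, and PSAL by 1.02 ± 0.08 and 0.82 ± 0.08. PSAL was the highest photosystem I gene by its mean over the 12 libraries, with 2075, 1813 and 1793 FPKM in pad4 labelled -Fe and 895, 975 and 926 FPKM in pad4 labelled +Fe. Wild-type PSAL had 1487, 1535 and 1449 FPKM at label -Fe and 850.1, 839 and 836 FPKM at label +Fe. For PSAH1 the values were 696, 647 and 562 FPKM in pad4 labelled -Fe and 282, 299.5 and 283 FPKM in pad4 labelled +Fe. Wild-type PSAH1 had 526, 493 and 513 FPKM at label -Fe and 259, 243 and 266 FPKM at label +Fe. For PSAH2 they were 612, 592 and 493 FPKM in pad4 labelled -Fe and 228, 184 and 223 FPKM in pad4 labelled +Fe. Wild-type PSAH2 had 439.9, 393 and 509.8 FPKM at label -Fe and 188, 172 and 198 FPKM at label +Fe. Both copies rose without overlap, PSAH1 by 1.13 ± 0.08 and 0.99 ± 0.08 and PSAH2 by 1.41 ± 0.12 and 1.26 ± 0.12 in pad4 and wild type.

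Among the photosystem II genes, PSBO, PSBP and PSBQ encode the lumenal proteins that shield the water-splitting manganese cluster. PSBQ1 (AT4G21280, chromosome 4, 11334402 to 11335773) had 1149, 1046 and 807 FPKM in pad4 labelled -Fe and 337, 221 and 308 FPKM in pad4 labelled +Fe. Wild-type PSBQ1 had 803, 587 and 809.5 FPKM at label -Fe and 299, 216 and 296 FPKM at label +Fe. PSBQ2 (AT4G05180, chromosome 4, 2671822 to 2673243) had 664, 600.3 and 463 FPKM in pad4 labelled -Fe and 157, 114 and 153 FPKM in pad4 labelled +Fe. Wild-type PSBQ2 had 466, 358 and 495 FPKM at label -Fe and 149, 117 and 149 FPKM at label +Fe. Both rose without overlap, PSBQ1 by 1.796 ± 0.20 in pad4 and 1.44 ± 0.20 in wild type and PSBQ2 by 2.02 ± 0.18 and 1.66 ± 0.18 (limma adjusted p from 2.63e-06 to 1.06e-04). PSBP1 rose by 1.31 ± 0.18 to 1208 ± 257 FPKM against 479 ± 46.5 FPKM in pad4, and by 1.04 ± 0.18 to 924 ± 162 FPKM against 447 ± 55.1 FPKM in wild type (SD, n = 3 each).

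PSBO1 had 2487, 2302 and 1763 FPKM in pad4 labelled -Fe and 1090.0, 834 and 1069 FPKM in pad4 labelled +Fe. Wild-type PSBO1 had 1826, 1342 and 1693 FPKM at label -Fe and 1131, 877 and 1083 FPKM at label +Fe. PSBO2 had 585, 564 and 422 FPKM in pad4 labelled -Fe and 304, 259 and 320.2 FPKM in pad4 labelled +Fe. Wild-type PSBO2 had 443, 325 and 428 FPKM at label -Fe and 282, 219 and 283 FPKM at label +Fe. PSBO1 rose by 1.12 ± 0.17 in pad4 and 0.65 ± 0.17 in wild type, and PSBO2 by 0.82 ± 0.16 and 0.60 ± 0.16 (limma adjusted p from 1.85e-04 to 0.00841).

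The small subunit PSBTN (AT3G21055, chromosome 3, 7376635 to 7377186) had the largest rise of the photosystem II genes. It had 903, 819 and 698 FPKM in pad4 labelled -Fe and 207, 162 and 202 FPKM in pad4 labelled +Fe. Wild-type PSBTN had 675, 517 and 558 FPKM at label -Fe and 169.9, 135 and 165 FPKM at label +Fe. It rose by 2.08 ± 0.14 in pad4 and 1.89 ± 0.14 in wild type (limma adjusted p = 3.38e-07 and 7.50e-07). Of the other low-mass membrane subunits, PSBW rose by 1.42 ± 0.11 and 1.13 ± 0.11 and PSBX by 1.34 ± 0.07 and 0.92 ± 0.07 in pad4 and wild type. PSBX was among the most even genes within groups, with 2325, 2133 and 2052 FPKM in pad4 labelled -Fe and 853, 872 and 843 FPKM in pad4 labelled +Fe. Wild-type PSBX had 1511, 1496 and 1495 FPKM at label -Fe and 801, 798 and 778 FPKM at label +Fe. PSB27, a lumenal factor of photosystem II assembly and repair, rose by 0.50 ± 0.11 and 0.43 ± 0.11.

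PSBR, PSBS and PSBY had small differences or none that was called. PSBR, which helps keep PSBP bound, had 3768, 3501 and 2591 FPKM in pad4 labelled -Fe and 2198, 2191 and 2098 FPKM in pad4 labelled +Fe. Wild-type PSBR had 2792, 2095 and 2773 FPKM at label -Fe and 2274, 1967 and 2384 FPKM at label +Fe. It rose by 0.59 ± 0.16 in pad4 (limma adjusted p = 0.00815, but 0.544 with quantile normalization, at 0.10), and its difference of 0.20 ± 0.16 in wild type was not called (0.310). PSBS, the protein that senses the acid lumen and switches on the dissipation of excess light energy, had 857, 875 and 546 FPKM in pad4 labelled -Fe and 579.6, 409 and 585 FPKM in pad4 labelled +Fe. Wild-type PSBS had 772, 524 and 854 FPKM at label -Fe and 665, 479 and 667 FPKM at label +Fe. The labels overlapped in both genotypes, and the differences of 0.52 ± 0.24 and 0.23 ± 0.24 were not called (limma adjusted p = 0.0829 and 0.439). Without pad4 labelled -Fe replicate 3, its lowest library there, PSBS was called in pad4, at 0.74 (limma adjusted p = 0.0190). PSBY rose by 0.40 ± 0.12 in pad4 and 0.36 ± 0.12 in wild type (limma adjusted p = 0.0158 and 0.0258). Both calls were lost with quantile normalization (limma adjusted p = 0.105 and 0.108). The pad4 call was also lost without either of replicates 1 and 3 of pad4 labelled -Fe or of pad4 labelled +Fe (limma adjusted p = 0.0503 to 0.0671), and the wild-type call without replicates 1 or 2 of wild type labelled -Fe or 1 or 3 of wild type labelled +Fe (0.0619 to 0.0978).

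Several subunits are made from a pair of gene copies, and 4 of the 6 pairs tested changed unequally between labels when both genotypes were pooled. The log2 ratio of the copies was compared between labels within each genotype with an exact two-sided permutation test over 400 relabellings, whose smallest possible p is 0.005, with p-values adjusted over the 6 pairs. The test uses the mean change of both genotypes, and the change in each genotype, given beside it, was not tested. PSAE1 over PSAE2 was 2.36 to 2.67 and 1.23 to 1.72 in pad4 labelled -Fe and +Fe, and 1.99 to 2.64 and 1.43 to 1.99 in wild type, a change of 0.59 (0.76 in pad4 and 0.41 in wild type; exact permutation p = 0.005, adjusted 0.01). PSAH1 over PSAH2 was 1.09 to 1.14 and 1.24 to 1.63 in pad4, and 1.01 to 1.25 and 1.34 to 1.42 in wild type, a change of -0.27 (-0.28 in pad4 and -0.26 in wild type; exact permutation p = 0.005, adjusted 0.01). PSBQ1 over PSBQ2 was 1.73 to 1.74 and 1.94 to 2.15 in pad4, and 1.63 to 1.72 and 1.86 to 2.01 in wild type, a change of -0.22 (-0.22 in pad4 and -0.22 in wild type; exact permutation p = 0.005, adjusted 0.01). In PSBQ and PSAH the copy that is lower in level thus rose more, and in PSAE, as in the PSBO pair given next, the copy that is higher did.

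PSBO1 over PSBO2 was 4.08 to 4.25 and 3.22 to 3.59 in pad4 labelled -Fe and +Fe, and 3.95 to 4.13 and 3.83 to 4.02 in wild type, a change of 0.17 (0.30 in pad4 and 0.04 in wild type; exact permutation p = 0.015, adjusted 0.0225). PSAD1 over PSAD2 was 1.05 to 1.73 and 1.19 to 1.70 in pad4, and 1.34 to 2.15 and 1.86 to 2.66 in wild type, and its change of -0.19 did not pass (-0.02 in pad4 and -0.36 in wild type; exact permutation p = 0.34, adjusted 0.408). LHCB4.1 over LHCB4.2 was 1.58 to 2.69 and 1.18 to 1.78 in pad4, and 1.98 to 3.096 and 2.28 to 3.39 in wild type, and its change of 0.19 did not pass either (0.54 in pad4 and -0.15 in wild type; exact permutation p = 0.41, adjusted 0.41). In the PSBO pair the ratios overlapped between labels in wild type. Those of the PSAE pair did so narrowly, with a lowest of 1.993 at label -Fe and a highest of 1.994 at label +Fe. The ratios printed are of FPKM, whereas the test used log2 ratios of FPKM + 1. In the PSAD and LHCB4 pairs the ratio spread widely within each group.

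**Figure D3:**
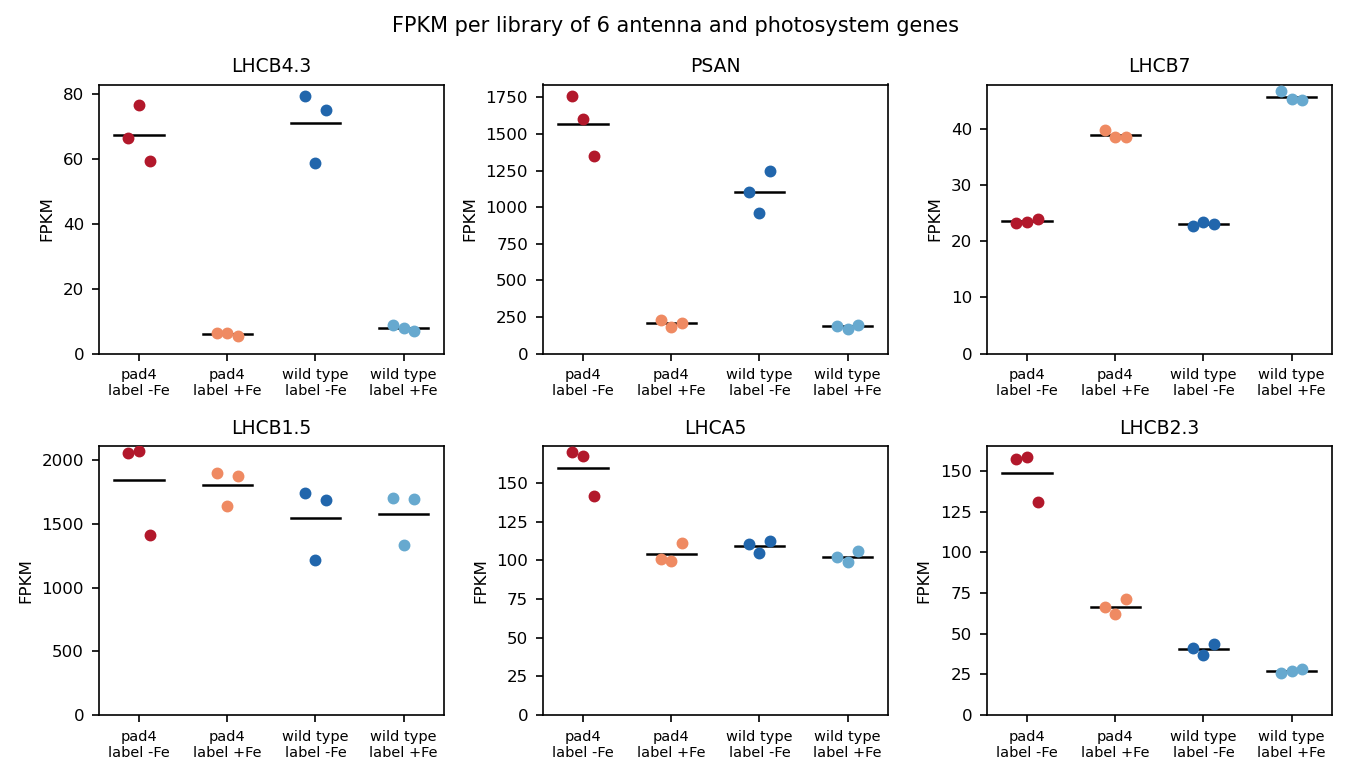
FPKM per library (linear vertical axes from 0) of LHCB4.3, PSAN, LHCB7, LHCB1.5, LHCA5 and LHCB2.3 in the 4 groups, 1 point per library and a bar at the group mean. LHCB4.3 and PSAN are high at label -Fe in both genotypes, LHCB7 is low there at 22.7 to 23.9 FPKM, LHCB1.5 overlaps throughout, and LHCA5 stands out in pad4 labelled -Fe at 142 to 170.5 FPKM.

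Between the genotypes, pad4 had higher levels of many of these genes at label -Fe and of few at label +Fe. At label -Fe, 23 of the 41 genes were higher in pad4, none was lower and 18 were not called, where 27.9% of all loci tested were called, 13.5% higher and 14.4% lower. The median difference was 0.38 over the 41 genes and 0.01 over all loci. The higher genes were 10 of 17 antenna genes, 9 of 12 photosystem I genes and 4 of 12 photosystem II genes. The parts differed less in size, with median differences of 0.33, 0.36 and 0.39 in the same order. Positive differences were found in 16 of 17, 12 of 12 and 12 of 12 genes. At label +Fe, 7 were higher, 1 was lower and 33 were not called, where 9.35% of all loci were called, 3.69% higher and 5.66% lower, with a median of 0.16. Of these 8 genes, 7 were antenna genes. With only the 6 libraries compared and the replicate number as a block, an alternative chosen after seeing the data, 19 were higher and 3 lower at label +Fe, where 28.6% of all loci were called. The genes added there were LHCA1, LHCB1.3, LHCB1.4, LHCB1.5, LHCB3, PSAE2, PSAF, PSAH2, PSAK, PSBO2, PSB27 and PSBTN, at 0.16 to 0.50, and LHCB4.3 and PSBS, at -0.33 and -0.20. The labels state no pairing. That block was fitted only where libraries of the same replicate number had correlated deviations, so its larger count is not independent of that choice. At label -Fe the genotypes did not overlap for 22 of the 41 genes, against 37.2% of all loci, and at label +Fe for 20, against 31.7%.

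The count at label -Fe depended on single libraries. It was 15 without wild type labelled -Fe replicate 2 or without pad4 labelled -Fe replicate 1, where 24.8% and 24.5% of all loci were called in either direction. It was 31 without pad4 labelled -Fe replicate 3, where 26.5% were called. Without the 4 libraries that stand apart it was 35, where 31.9% were called. It was 8 when only the 6 libraries compared were fitted, where 19.5% of all loci were called. These 8 were LHCA5, LHCA6, LHCB1.4, LHCB2.3, LHCB4.2, PSAD2, PSAK and PSBX. The same 8 genes were called at label -Fe under every alternative run. Without the 4 libraries, 11 genes were higher in pad4 at label +Fe, where 15.6% of all loci were called in either direction. The heat-shock genes differ between these 2 groups as given above, and their part in the difference was not tested.

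**Figure D4:**
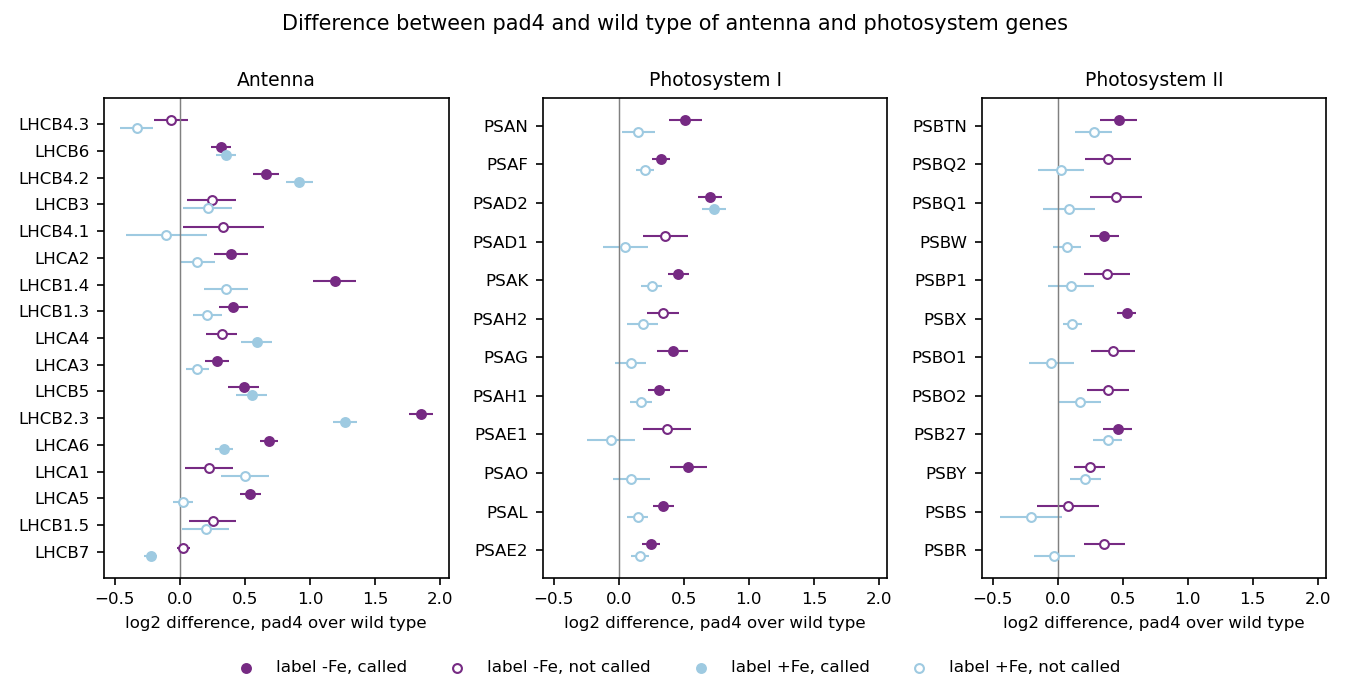
Log2 difference of pad4 over wild type, log2(FPKM + 1), for each gene at label -Fe (purple) and at label +Fe (light blue), with bars of 1 standard error and open points where the adjusted p did not pass 0.05. LHCB2.3 has the largest difference at both labels, 1.85 and 1.27, and in the photosystem II panel only PSBTN, PSBW, PSBX and PSB27 are filled, all at label -Fe.

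LHCB2.3 differed most between the genotypes, at both labels, though the split of reads among the LHCB2 copies is uncertain. Its mean FPKM was 3.68 times that of wild type at label -Fe and 2.46 times at label +Fe, and it was higher in pad4 on the log2(FPKM + 1) scale by 1.85 ± 0.09 and 1.27 ± 0.09 (limma adjusted p = 7.73e-08 and 2.39e-05). LHCB4.2 was higher in pad4 by 0.66 ± 0.10 at label -Fe and 0.92 ± 0.10 at label +Fe (5.64e-04 and 2.97e-04), PSAD2 by 0.70 ± 0.09 and 0.73 ± 0.09 (1.87e-04 and 6.51e-04), and LHCA6 by 0.68 ± 0.07 and 0.34 ± 0.07 (1.99e-05 and 0.00919). The partner copies of 2 of them were not called at either label: LHCB4.1 differed by 0.33 ± 0.31 and -0.10 ± 0.31, and PSAD1 by 0.36 ± 0.17 and 0.05 ± 0.17, at label -Fe and +Fe. Whether the copies differ in this was not tested.

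At label -Fe, LHCB1.4 was higher in pad4 by 1.19 ± 0.17 (limma adjusted p = 2.70e-04), PSBX by 0.53 ± 0.07 (2.39e-04) and LHCA5 by 0.54 ± 0.08 (3.71e-04), and their differences at label +Fe of 0.36 ± 0.17, 0.11 ± 0.07 and 0.02 ± 0.08 were not called. LHCB1.3, the gene of highest level, was higher by 0.41 ± 0.11 at label -Fe (0.0170), but stood at -0.05 with quantile normalization, where its call was lost (limma adjusted p = 0.728). The merged loci followed: LHCB1.1 with LHCB1.2 was higher in pad4 by 0.75 ± 0.16 at label -Fe (0.00435) and LHCB2.1 with LHCB2.2 by 0.90 ± 0.17 (0.00187), and at label +Fe their differences of 0.52 ± 0.16 and 0.55 ± 0.17 were not called (0.0662 and 0.0627).

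LHCA4, LHCB5 and LHCB6 were the other genes higher in pad4 at label +Fe, by 0.59 ± 0.12, 0.55 ± 0.12 and 0.35 ± 0.08 (limma adjusted p = 0.00970, 0.0145 and 0.0175). The calls of LHCB5 and LHCB6 were each lost without single libraries, LHCB5 without replicates 1 or 3 of wild type labelled +Fe or 2 or 3 of pad4 labelled +Fe (limma adjusted p = 0.0575 to 0.0724), and LHCB6 without any replicate of wild type labelled +Fe or replicates 1 or 3 of pad4 labelled +Fe (0.0536 to 0.0780). LHCB7 was lower in pad4 at label +Fe, with a difference of -0.22 ± 0.05 (0.0179), a call lost without replicates 1 or 3 of wild type labelled +Fe or replicates 2 or 3 of pad4 labelled +Fe (0.0585 to 0.0932).

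The log2 difference between Fe labels was itself higher in pad4 than in wild type for 6 genes and lower for none, and 35 were not called, where 14.7% of all loci tested were called, 7.07% with a positive and 7.58% with a negative difference of differences. Its median was 0.25 over the 41 genes and -0.01 over all loci. LHCA5 differed by 0.52 ± 0.11 (limma adjusted p = 0.00949), LHCB2.3 by 0.58 ± 0.13 (0.0114), PSBX by 0.42 ± 0.10 (0.0188), LHCA6 by 0.34 ± 0.10 (0.0331) and LHCB1.4 by 0.84 ± 0.24 (0.0358). LHCB7, the sixth, fell in both genotypes and less in pad4, a difference of 0.25 ± 0.07 (0.0391). No photosystem I gene was among them, though 11 of the 12 had a positive value. Their median was 0.20, as was that of the antenna genes.

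Only LHCA5 and LHCB2.3, the latter a copy with an uncertain split of reads, held this call under every alternative. The count was 2 without wild type labelled +Fe replicate 1 or pad4 labelled +Fe replicate 3, where 10.2% and 11.4% of all loci were called in either direction. It was 3 without wild type labelled -Fe replicate 2, wild type labelled +Fe replicate 3 or pad4 labelled -Fe replicate 2, where 12.3%, 10.6% and 12.4% were called. Without the 4 libraries that stand apart it was 13, where 20.2% of all loci were called. In that last count the genes added were LHCB4.1, PSAE1, PSAG, PSAO, PSBO1, PSBQ2, PSBR and PSBW, at 0.34 to 0.51, and LHCB7 was lost.

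The 41 genes varied together among libraries of one group. In each group 1 library was the lowest for many of them: pad4 labelled -Fe replicate 3 for 35 genes, pad4 labelled +Fe replicate 2 for 25, wild type labelled -Fe replicate 2 for 33 and wild type labelled +Fe replicate 2 for 30. The same libraries were the lowest of their group for 34.6%, 41.6%, 36.0% and 36.9% of all loci, in the same order. These are the 4 libraries that had stood apart in earlier results of the same data. Over the 41 genes, 24 were lowest of their group in all 4 of them, against 16.0% of all loci, and LHCA1, LHCB5, PSAD2 and PSBY were highest in all 4, against 19.7% of all loci. LHCB4.1 and PSBS deviated most downwards there, and LHCA1 upwards.

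**Figure D5:**
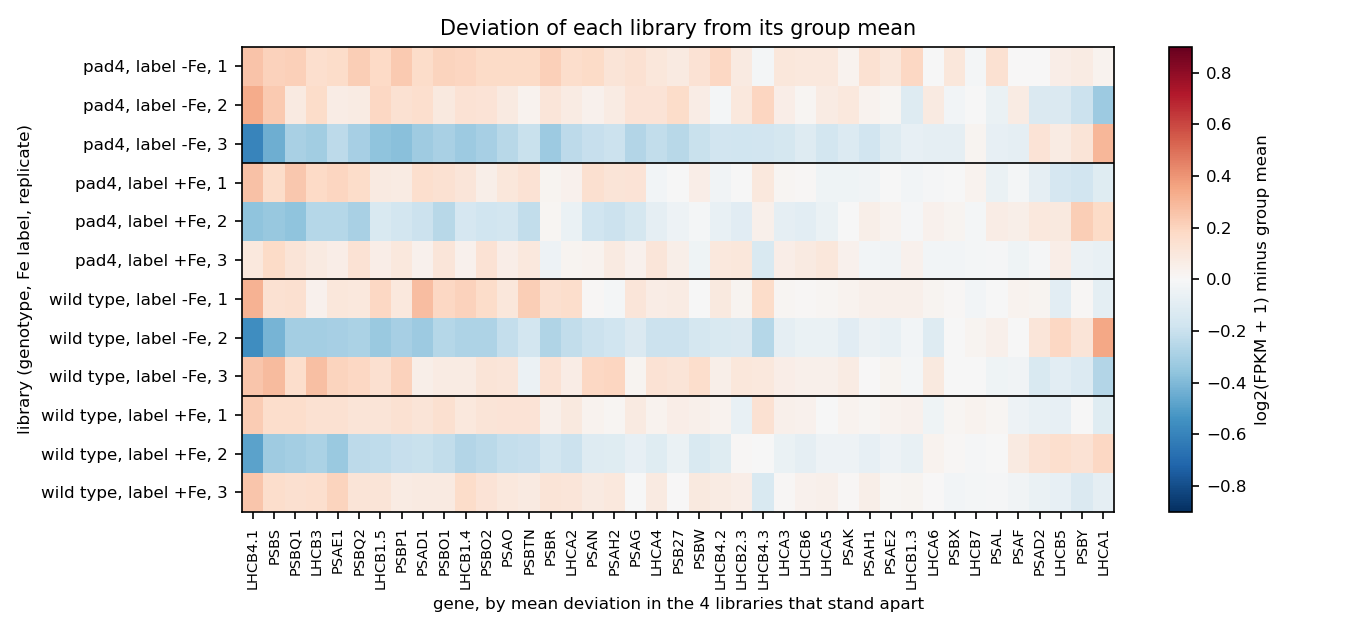
Deviation of each library from the mean of its group, in log2(FPKM + 1), for the 41 genes (columns, ordered by their mean deviation in the 4 libraries that stand apart) and the 12 libraries (rows). Replicate 3 of pad4 labelled -Fe and replicate 2 of the other groups are blue, below their group, for most genes from LHCB4.1 onwards, and red for LHCB5, PSAD2, PSBY and LHCA1 at the right.

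Without these 4 libraries, the Fe label comparison gave 38 genes higher and 1 lower in pad4 and 37 higher and 1 lower in wild type. Of all loci, 61.4% in pad4 and 55.6% in wild type were then called in either direction. PSBS was then called in both genotypes, at 0.57 in pad4 and 0.29 in wild type (limma adjusted p = 0.000203 and 0.00842), and PSBR in wild type at 0.26 (0.0374).

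The partners of these genes in the same complexes were looked at from lists that cover plastid-encoded core subunits, assembly factors, targeting of antenna proteins, antenna-like proteins, and neighbouring complexes. Their counts stand against the shares of all loci given above, 26.3% rising and 31.0% falling in pad4 and 25.2% rising and 26.7% falling in wild type. Of 20 plastid-encoded core subunits, 11 could be tested. Of the 17 with a locus of their own, 5 stood at 0 FPKM in every library. A change in plastid RNA and a change in how much of it entered a library cannot be told apart here. In pad4 7 of them rose and none fell. In wild type 2 of 11 were called higher and none lower, a smaller share called than among all loci. The differences were nevertheless positive for 10 of 11 in wild type, with a median of 0.82, and for 11 of 11 in pad4, with 1.73. Over all loci the medians were -0.02 and -0.05. The pad4 count rested on single libraries, and was 2 without pad4 labelled -Fe replicate 2, 3 without pad4 labelled +Fe replicate 1 or 2, and 5 without any other library of the comparison. Leaving out single libraries of these lists was chosen after seeing the data. PsbA, the D1 protein of the photosystem II centre, had 157, 265 and 91.8 FPKM in pad4 labelled -Fe and 37.3, 24.2 and 35.3 FPKM in pad4 labelled +Fe. Wild-type psbA had 400.5, 32.1 and 74.2 FPKM at label -Fe and 70.3, 72.7 and 83.95 FPKM at label +Fe. PsaA, of the photosystem I centre, had 31.8, 55.1 and 38.9 FPKM in pad4 labelled -Fe and 9.12, 10.2 and 10.6 FPKM in pad4 labelled +Fe. Wild-type psaA had 70.4, 6.04 and 8.48 FPKM at label -Fe and 7.67, 9.24 and 7.91 FPKM at label +Fe. PsbB, an inner antenna protein of photosystem II, had 22.6, 48.7 and 32.9 FPKM in pad4 labelled -Fe and 5.697, 5.04 and 5.57 FPKM in pad4 labelled +Fe. Wild-type psbB had 66.6, 8.94 and 9.26 FPKM at label -Fe and 4.52, 6.66 and 5.04 FPKM at label +Fe. Wild type labelled -Fe replicate 1 was far above the others of its group for all of psbA, psaA and psbB. The psbA difference was 2.26 ± 0.70 in pad4 and 0.39 ± 0.70 in wild type (limma adjusted p = 0.0165 and 0.668), and that of psaA 1.94 ± 0.65 and 0.86 ± 0.65 (0.0242 and 0.289), so both rose in pad4 and were not called in wild type. The psbA call was lost without pad4 labelled -Fe replicate 2 or pad4 labelled +Fe replicate 2 (limma adjusted p = 0.0663 and 0.0540), and the psaA call without pad4 labelled -Fe replicate 2 or any replicate of pad4 labelled +Fe (0.0512 to 0.0784). The wild-type calls were psbM, at 0.57 ± 0.11, and psbB, at 1.58 ± 0.59 (limma adjusted p = 8.06e-04 and 0.0416). Without wild type labelled -Fe replicate 1 the psbB difference was 0.67 ± 0.25 (0.0498), and its call was lost without any replicate of wild type labelled +Fe (0.0596 to 0.102).

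All 5 genes that target antenna proteins to the thylakoid rose in both genotypes, among them CPFTSY, the receptor of the chloroplast signal recognition particle (0.64 ± 0.07 in pad4 and 0.47 ± 0.07 in wild type), and CPSRP54, a subunit of that particle (0.49 ± 0.11 and 0.71 ± 0.11). Of 6 photosystem I assembly factors, 5 rose in pad4 and 4 in wild type, with PPD1 at 0.87 ± 0.12 and 1.08 ± 0.12 and PSA3 at 0.69 ± 0.10 and 0.49 ± 0.10. Of 17 factors of photosystem II assembly and repair that were tested, 8 rose and 2 fell in pad4, and 5 rose and 3 fell in wild type. Called in either direction were thus 10 of 17 in pad4 and 8 of 17 in wild type, near the 57.4% and 51.9% of all loci. The ones that fell in both were FTSH1 (-0.28 ± 0.09 and -0.70 ± 0.09) and FTSH8 (-0.34 ± 0.07 and -0.52 ± 0.07), subunits of the protease that removes damaged D1. The pad4 call of FTSH1 was lost without replicate 2 of pad4 labelled -Fe or of pad4 labelled +Fe (limma adjusted p = 0.0760 and 0.0640).

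Among 8 antenna-like proteins of the same superfamily, 3 rose and 3 fell in pad4 and 1 rose and 3 fell in wild type, or 6 and 4 of 8 called in either direction, against 57.4% and 51.9% of all loci. ELIP1 and ELIP2, early light-induced proteins that appear under excess light, ran against most antenna genes. ELIP1 had 26.97, 20.7 and 14.7 FPKM in pad4 labelled -Fe and 90.2, 78.03 and 88.1 FPKM in pad4 labelled +Fe. Wild-type ELIP1 had 29.3, 23.5 and 29.6 FPKM at label -Fe and 123, 104 and 119 FPKM at label +Fe. ELIP2 had 19.6, 14.8 and 18.95 FPKM in pad4 labelled -Fe and 31.9, 39.9 and 36.3 FPKM in pad4 labelled +Fe. Wild-type ELIP2 had 6.22, 7.36 and 4.87 FPKM at label -Fe and 71.9, 77.4 and 68.8 FPKM at label +Fe. ELIP1 fell in both, with differences of -2.02 ± 0.17 and -2.03 ± 0.17, whereas ELIP2 fell less in pad4, with -0.98 ± 0.14 against -3.38 ± 0.14 in wild type, a difference of 2.397 ± 0.20 (limma adjusted p = 1.26e-05).

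Of 9 nuclear genes of the NDH complex, to which LHCA5 and LHCA6 tie photosystem I, 8 rose and none fell in pad4, and 3 rose and 1 fell in wild type. PNSB1 rose by 1.02 ± 0.09 and 0.71 ± 0.09 and PNSB3 by 0.86 ± 0.11 and 1.03 ± 0.11. At label -Fe, 7 of the 9 were higher in pad4 than in wild type, where 13.5% of all loci were. The 3 ATP synthase genes rose in both genotypes, ATPD by 1.23 ± 0.10 and 0.93 ± 0.10 and ATPC1 by 0.72 ± 0.07 and 0.47 ± 0.07. Of 3 genes of the other cyclic route, 2 fell in pad4 and 1 in wild type, PGRL1A with differences of -0.40 ± 0.06 and -0.61 ± 0.06. Among 4 kinases and phosphatases of the photosystems, 2 rose in pad4 and 1 fell in wild type, the kinase STN8, at 0.19 ± 0.10 in pad4 (not called) and -0.43 ± 0.10 in wild type.

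Of 17 regulators of photosynthesis genes, 7 rose and 7 fell in pad4, where 26.3% of all loci rose and 31.0% fell, and 7 rose and 5 fell in wild type, where 25.2% rose and 26.7% fell. GLK1 and GLK2 are transcription factors that switch on antenna and photosystem genes. GLK1 had 66.4, 65.7 and 53.5 FPKM in pad4 labelled -Fe and 17.3, 15.7 and 17.7 FPKM in pad4 labelled +Fe. Wild-type GLK1 had 100.2, 74.7 and 86.8 FPKM at label -Fe and 28.8, 25.5 and 29.98 FPKM at label +Fe. GLK2 had 67.05, 55.8 and 47.9 FPKM in pad4 labelled -Fe and 33.05, 29.1 and 29.3 FPKM in pad4 labelled +Fe. Wild-type GLK2 had 59.99, 51.03 and 60.7 FPKM at label -Fe and 29.3, 22.4 and 30.9 FPKM at label +Fe. Both rose without overlap, GLK1 by 1.81 ± 0.12 and 1.59 ± 0.12 and GLK2 by 0.87 ± 0.14 and 1.04 ± 0.14 in pad4 and wild type. Between genotypes GLK1 was lower in pad4 at both labels, with differences of -0.49 ± 0.12 at -Fe and -0.70 ± 0.12 at +Fe (limma adjusted p = 0.00897 and 0.00358), and GLK2 was not called. Of the sigma factors of the plastid RNA polymerase, SIG1 rose by 1.68 ± 0.10 and 1.91 ± 0.10 and SIG5 fell, with -1.903 ± 0.11 and -2.22 ± 0.11.

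The authors' deposited tables, which compare 2 groups each, list their own log2 folds and q-values for all 41 genes. At q under 0.05, the authors' deposited table for pad4 had 38 of the 41 genes higher and 1 lower at label -Fe, where 24.5% of its tested loci were higher and 28.2% lower, and that for wild type had 35 higher and 1 lower, where 23.6% were higher and 24.7% lower. The gene lower in both authors' deposited tables was LHCB7. For pad4 against wild type, the authors' deposited tables had 18 genes higher and 0 lower at label -Fe, where 9.85% of loci were higher and 12.5% lower, and 9 higher and 0 lower at label +Fe, where 6.03% were higher and 6.93% lower. PSBS, not called above, had a log2 fold of 0.53 in pad4 in the authors' deposited table (q = 0.000333).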

How the data were processed

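RNA-seq expression of 12 libraries, 3 in each of 4 groups, was analysed as deposited. The authors deposited FPKM per locus on TAIR10, per the submitters' processing notes and the file headers, and 354 loci merge several genes. The sources used here give no aligner, strand setting or depth, so no counting interval can be given. The authors also deposited group FPKM, log2 folds, p-values, q-values and a test score (not used) for 4 comparisons of 2 groups.

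From the FPKM, log2(FPKM + 1) was fitted with limma 3.58.1 (trend, R 4.3.3) over the 20173 loci that reached 1 FPKM in 3 or more libraries, with 1 mean per group, all 12 libraries in 1 fit and Benjamini-Hochberg adjustment over all loci. Groups came from the sample labels. Tables and plots used python 3.11.15, numpy 2.4.6, pandas 2.3.3 and matplotlib 3.10.9. On simulated data for the Fe label effect in wild type, of 100 loci changed by 1 log2 unit 87 were called, of 100 changed by 2 all 100 were, and 8 of the other loci among the 20173 were. The simulation changed only 200 loci and drew the noise of each locus independently. In the data 51.9% of loci were called and genes varied together among libraries of a group. The simulated rates thus cannot be carried over to these data.

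The genes and lists were chosen with earlier results of these data known. Values in every library are given for the 3 genes with the largest and the 1 with the smallest Fe label effect in wild type in the antenna, photosystem I and photosystem II, for up to 4 called genes per genotype or interaction comparison by adjusted p, and for paralog pairs. LHCA1, LHCA2, LHCB1.3, PSAL, PSBS and the merged loci were added after their values were seen. From each list of other genes up to 2 called genes by adjusted p in wild type are named, with GLK1, GLK2, psbA, psaA, ELIP1 and ELIP2 in any case. The alternatives were another pseudocount (0.1), no filter, quantile and median-of-ratios scaling, a total without these genes and the 20 highest loci, limma without trend, a replicate block, only the groups compared, and leaving out 1 library or the 4 that stand apart. Added after seeing the data were the block with only the groups compared, and leaving out 1 library for the other lists. Replicate numbers are in the labels, which state no shared culture or day, so pairing was checked on deviations from group means. For libraries of 1 number, the correlation of deviations was 0.12 to 0.51 across the Fe labels of wild type and 0.20 to 0.47 across the genotypes at label +Fe. All were over 0.1, the rule by which a block was fitted within these comparisons. In wild type, replicates 1 and 3 correlated more across numbers, at 0.23 and 0.29, than within them, at 0.12 and 0.19. The values of 0.51 and 0.47 were those of replicate 2, which stands apart in all the groups compared there. Whether the numbers pair the wild-type libraries is thus not settled. For libraries of 1 number the correlation was -0.30 to 0.14 across the Fe labels of pad4 and -0.42 to -0.01 across the genotypes at label -Fe, which the numbers do not pair.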

Additional observations from a re-analysis of the deposited data

Results flagged for a closer look

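For 6 of the 41 genes the difference between Fe labels was itself different between pad4 and wild type. The interaction term of the limma fit over all loci was used. These genes were 14.6% of the 41, near the 14.7% of all loci called, 7.07% with a positive and 7.58% with a negative value. The values, pad4 minus wild type on the log2 scale, were 0.84 for LHCB1.4 (limma adjusted p = 0.0358), 0.58 for LHCB2.3 (0.0114), 0.52 for LHCA5 (0.00949), 0.42 for PSBX (0.0188), 0.34 for LHCA6 (0.0331) and 0.25 for LHCB7 (0.0391). In LHCB7 the positive value stands for a smaller fall in pad4, with a difference of -0.70 against -0.95 in wild type. The summed heat-shock genes, high in wild type labelled -Fe, have an interaction of the opposite sign in all 7, and their part was not tested.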

How the results depend on the processing

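Of 3932 values recomputed under the alternatives, 3712 kept their direction and side of the threshold and 1 reversed, LHCB1.3 between genotypes at label -Fe, which was -0.048 with quantile normalization (limma adjusted p = 0.728). Of the called genes, 35 in pad4 and 34 in wild type kept their Fe label call under every alternative, 8 and 5 kept their genotype call at label -Fe and +Fe, and 2 their interaction. With quantile normalization 2 genes were lower at label -Fe in wild type and the median differences were 1.00 in pad4 and 0.79 in wild type. Without the 4 libraries that stand apart, 35 genes were higher in pad4 at label -Fe, 11 at label +Fe and 13 had an interaction. Calls over all loci rose there too, in either direction, from 27.9% to 31.9%, from 9.35% to 15.6% and from 14.7% to 20.2%. With only the groups compared, 8 were higher at label -Fe, a fit with fewer samples, where 19.5% of all loci were called. For the other changes the cause was not tested.

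Leaving out 1 library of the groups compared gave 36 to 37 genes higher at label -Fe in pad4 and 34 to 35 in wild type, with 1 lower in each. For pad4 over wild type it gave 15 to 31 higher at label -Fe (16 without pad4 labelled -Fe replicate 2), 5 to 6 higher and 0 to 1 lower at label +Fe, and for the interaction 2 to 5. Medians ranged from 1.196 to 1.38, 0.92 to 1.02, 0.29 to 0.52, 0.11 to 0.19 and 0.14 to 0.35 for these 5 comparisons. In the same order, 50.9 to 58.0%, 46.1 to 51.1%, 23.5 to 26.5%, 5.11 to 8.02% and 10.2 to 16.1% of all loci were called in either direction. The changes of paralog ratios ranged from 0.52 to 0.65 for PSAE, -0.31 to -0.21 for PSAH, -0.24 to -0.20 for PSBQ, 0.16 to 0.20 for PSBO, -0.27 to -0.08 for PSAD and 0.10 to 0.30 for LHCB4.

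Libraries of 1 replicate number all had correlated deviations, over 0.1, in the Fe label comparison of wild type and in the genotype comparison at label +Fe. In the other comparisons they did not. In wild type, replicates 1 and 3 correlated more across numbers than within them, so pairing there is not settled. With the replicate block over all 12 libraries, 37 genes were higher at label -Fe in pad4 and 35 in wild type, 24 were higher in pad4 at label -Fe (PSBO1 added, limma adjusted p = 0.0470) and 7 at label +Fe, and 4 had an interaction, LHCA6 (0.0553) and LHCB7 (0.0614) being lost. It changed no other call of the 41 genes. With the replicate block and only the groups compared, chosen after seeing the data, 39 genes were higher and 1 lower at label -Fe in wild type, and 19 were higher and 3 lower in pad4 at label +Fe. With 3 libraries a group and no counts, the precision behind single FPKM values is unknown.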
